A study of Mus musculus with 2 samples.

Results

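The genes described here are 6 genes of thymic egress and lymphocyte homing around the transcription factor Klf2: Klf2 itself, its regulator Foxo1, the sphingosine 1-phosphate receptors S1pr1 and S1pr4, and the adhesion genes Selplg and Icam2. They were chosen by name, with older names allowed, and the array files carry S1pr1 as Edg1 and S1pr4 as Edg6. All 6 genes had a probe, 9 probes in all of 41174 on the array, and 5 of the 6 were among the 14926 genes tested, S1pr1 being the exception. A gene was tested where a probe was well above background in at least 1 of the groups on both arrays, and its brightest such probe stood for it.

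Double-positive (DP) thymocytes, the CD4+ CD8+ stage of T cell development in the thymus, were compared between 2 genotypes on 2 mouse 2-colour oligonucleotide arrays. The first group, called deficient here, was Bcl11bF/FCD4Cre/Tcra-/-, in which Bcl11b is floxed and the Cre recombinase is expressed under Cd4 regulatory elements, and the second, the control, was TCRa-/-. Every sample therefore lacked Tcra, and per the series' design the cells were studied at the stage before selection, because Bcl11bF/FCD4Cre mice have a defect in positive selection. The control's label mentions no Cre and no floxed allele, the mice were untreated, and the labels give no age, no number of mice per sample, no method of selecting DP cells and no deleted part of Bcl11b. The arrays are labelled biological replicates, so each group had 2 samples, and both arrays lay on 1 slide. Cy5 always marked the deficient sample and Cy3 the control, so genotype and dye cannot be told apart.

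As background, thymocytes leave the thymus by following sphingosine 1-phosphate, a lipid that is abundant in blood and scarce in tissue, through the receptor S1pr1. Klf2, a Krüppel-like zinc finger factor, switches on S1pr1 in mature single-positive thymocytes, and Foxo1, a forkhead factor that Akt keeps out of the nucleus, acts upstream of Klf2 and also on Ccr7 and Il7r. In DP cells this programme is described as largely off, though both Klf2 probes were well above background in all 4 samples here. Cd69, which pulls S1pr1 from the cell surface, comes up during selection.

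The promoters of Klf2, Foxo1 and S1pr4, the members for which one was matched, are shown first. Each is 300 bases around the annotated start, from RefSeq on GRCm38.p6, 5′ to 3′ on the gene's strand. RefSeq promoters were matched for 3 of the 6 members and not for S1pr1, Selplg or Icam2. Capitals mark matches on either strand to 3 motifs: CACCC, the box that Krüppel-like factors bind; GTAAACA, a forkhead core; and CTANNNNTAG, a Mef2 site, since Mef2 factors act on the Klf2 promoter downstream of the kinase Erk5.
Klf2, chr8:72318812-72319111, plus strand: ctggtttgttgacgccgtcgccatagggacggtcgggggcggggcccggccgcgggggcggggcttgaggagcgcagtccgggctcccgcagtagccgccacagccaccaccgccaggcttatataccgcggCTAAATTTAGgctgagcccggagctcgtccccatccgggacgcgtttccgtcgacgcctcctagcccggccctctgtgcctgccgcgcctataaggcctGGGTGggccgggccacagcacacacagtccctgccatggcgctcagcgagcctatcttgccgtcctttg
Foxo1, chr3:52268087-52268386, plus strand: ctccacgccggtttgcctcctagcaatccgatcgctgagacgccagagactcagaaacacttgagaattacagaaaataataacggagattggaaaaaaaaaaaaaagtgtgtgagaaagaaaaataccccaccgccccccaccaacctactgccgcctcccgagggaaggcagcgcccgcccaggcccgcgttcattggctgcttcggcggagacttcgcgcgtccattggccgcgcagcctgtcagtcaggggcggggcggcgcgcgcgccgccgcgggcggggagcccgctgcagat
S1pr4, chr10:81500088-81500387, minus strand: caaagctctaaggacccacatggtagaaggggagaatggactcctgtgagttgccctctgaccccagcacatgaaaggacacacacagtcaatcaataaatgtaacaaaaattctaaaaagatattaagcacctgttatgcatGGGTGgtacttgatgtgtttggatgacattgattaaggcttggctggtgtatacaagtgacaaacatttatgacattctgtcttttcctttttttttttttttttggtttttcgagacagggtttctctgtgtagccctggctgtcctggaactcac
The Klf2 promoter held the Mef2 match CTAAATTTAG beginning at base -118, with a reverse-strand CACCC box, read GGGTG, at base -19. The S1pr4 promoter held a reverse-strand CACCC box at base -107, and that of Foxo1 held no match to any of the 3. No match to GTAAACA stood in any of these 3 windows. Among 32851 mouse promoters of the same length, 57.5% held CACCC, 3.65% GTAAACA and 3.69% CTANNNNTAG. A match is a string of letters and not a site of binding, and nothing was measured at these promoters.

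Before the members, the targeted gene was read. Bcl11b had log2 ratios of deficient over control of -1.40 and -0.28 on replicates 1 and 2 at its brighter probe, and of -1.37 and -2.16 at its other probe. Both probes were lower in the deficient sample on both arrays, but on replicate 2 they stood 1.88 apart, a wider gap than in 99.9% of 4732 genes with more than 1 kept probe. Whether either probe lies in the deleted part of the gene is not given by the labels, so neither is a clean check of deletion. Of the DP markers, 8 of 8 were well above background in all 4 samples, Cd4, Cd8a, Cd8b1 and Rag1 among them. Of these 8, 2 read higher and 6 lower in the deficient sample on both arrays, beside 36.4% and 38.5% of all genes tested, and their median was -0.26. The higher ones were Cd8b1, with a mean log2 ratio of 0.48, and Cd8a, with 0.01, which turned to -0.34 from the processed signals. The lower ones ran from Rag2 at -0.57 and Cd24a at -0.50 to Cd3e at -0.11. In RNA of a whole sample, fewer cells of a type and less RNA per cell cannot be told apart. Of 43379 spots that were not controls, 50.5% to 56.5% were well above background per channel and array. The log2 ratios of all genes tested correlated with r = 0.674 between arrays, across genes, which are not independent replicates.

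No member was called at an adjusted p under 0.05 in limma's moderated test, and neither was any other gene (0% of 14926). At an unadjusted p under 0.05, 3 of the 5 tested members passed, Klf2, Foxo1 and S1pr4, all higher in the deficient sample, beside 29.2% of all genes tested. In direction, 4 of the 5 were higher on both arrays (36.4% of all genes) and Icam2 was lower on both (38.5%). No member differed by at least 2-fold on both arrays at its brightest probe, which 1.09% of all genes did in the same direction. The median of the 5 mean log2 ratios was 0.40, and that of all genes -0.00. These p values rest on limma's moderated spread, which draws each gene's spread between the 2 arrays toward that of all genes. The pooled spread counted for 2.51 degrees of freedom and the gene's own for 1. Having only 2 arrays limits the precision of every value.

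**Figure D1:**
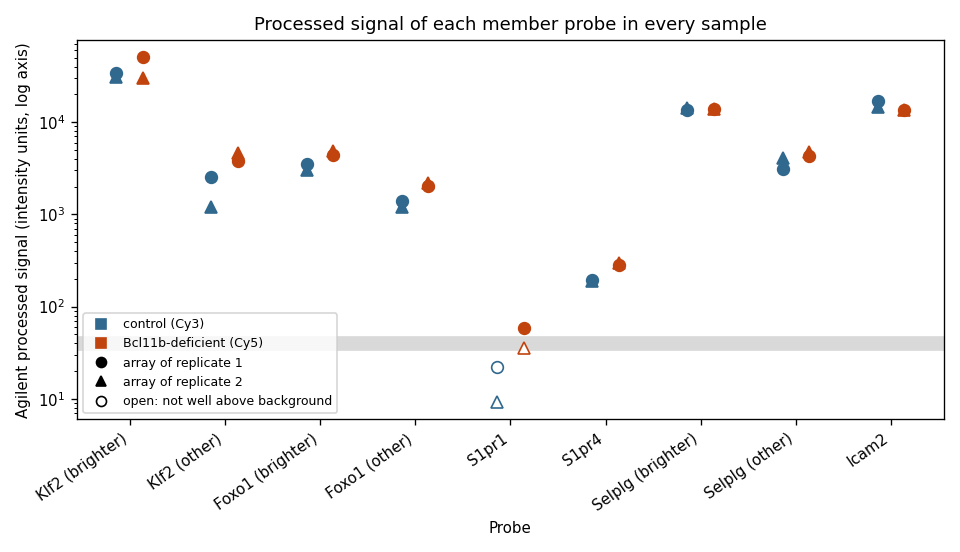
Agilent processed signal, in intensity units on a log axis, of the 9 probes of the 6 genes in each of the 4 samples; circles are replicate 1, triangles replicate 2, blue the control and orange the deficient group, and the grey band spans the lowest processed signals called well above background. Both deficient samples lie above both controls at both Foxo1 probes and at S1pr4, the groups overlap at the brighter Klf2 and Selplg probes, and S1pr1 is well above background in 1 deficient sample only.

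Foxo1, the forkhead factor at the head of the axis, read higher in the deficient sample at both of its probes and on both arrays. At the brighter probe (chr3:52434190-52434249, mm8, plus strand), processed signals were 4363 and 4839 in deficient replicates 1 and 2 and 3541 and 3030 in the control. Both deficient samples were above both controls, as in 25.3% of all genes. The log2 ratios from the scanner signals were 0.24 and 0.65, with a mean of 0.44 ± 0.13 (SE, limma, n = 2 arrays; 95% interval 0.06 to 0.83; adjusted p = 0.145). Foxo1 stood at rank 1098 from the top of the genes tested, and without replicate 2 its value was the 0.24 of replicate 1.

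At the other Foxo1 probe (chr3:52437296-52437355, mm8), processed signals were 2047 and 2166 in the deficient samples and 1386 and 1191 in the controls. The groups did not overlap there either. Its log2 ratios were 0.50 and 0.78, with a mean of 0.64 ± 0.10 (limma over all kept probes, adjusted p = 0.104). The Foxo1 probes were 0.27 apart on replicate 1 and 0.13 on replicate 2, where the median gap over genes with more than 1 kept probe was 0.165 and 0.151.

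Klf2, the factor that gives the axis its name, read higher in the deficient sample on average at both probes, but each probe had 1 array with most of the difference, and not the same array. At the brighter probe (chr8:75248851-75248910, mm8, plus strand), processed signals were 50406 and 30408 in deficient replicates 1 and 2 and 34133 and 30826 in the control. The groups overlapped there, since deficient replicate 2 was the lowest of the 4 samples. Its log2 ratios were 0.89 and 0.24, with a mean of 0.56 ± 0.19 (limma, n = 2 arrays; 95% interval 0.01 to 1.12; adjusted p = 0.166). Without replicate 1 the value was the 0.24 of replicate 2.

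At the other Klf2 probe (chr8:75250227-75250286, mm8), processed signals were 3816 and 4647 in the deficient samples and 2545 and 1204 in the controls. Here both deficient samples were above both controls, as in 25.3% of all genes at their brightest probe, and the control of replicate 2 was the lowest. The log2 ratios were 0.56 and 1.86, with a mean of 1.21 ± 0.36 (limma over all kept probes, adjusted p = 0.160). On replicate 2 the 2 Klf2 probes stood 1.63 apart, a wider gap than in 99.7% of genes with more than 1 kept probe, and on replicate 1 they stood 0.33 apart (78.7%).

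The brighter Klf2 probe lay among the most intense on the array, above 99.4% of genes in mean log2 intensity, where ratios of all genes were offset upward. The 328 genes with a mean log2 intensity over 16 had median log2 ratios of 0.37 and 0.36 on replicates 1 and 2. A running median over genes ordered by intensity was also taken off, a setting chosen after the data were seen. Against it, the brighter Klf2 probe stood at 0.67 and -0.00, a mean of 0.33. The running median there was 0.22 and 0.24 on replicates 1 and 2. It had the same values for Ezr, Coro1a, Cd8a, Rag1 and Cd8b1, so at the bright end it was not local to Klf2. It also took off less than the medians of 0.37 and 0.36 of the genes over 16. From the processed signals the mean of the brighter Klf2 probe was 0.27. With plain median centring of each array it was 1.25, which limma called (adjusted p = 0.0370) together with 6.65% of all genes. The other Klf2 probe, of lower intensity, had a mean of 1.27 from the processed signals.

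**Figure D2:**
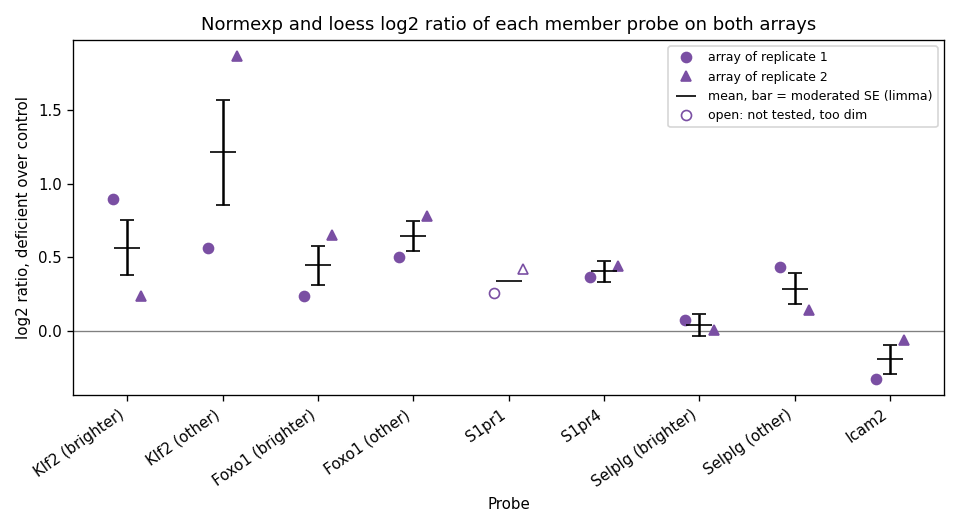
Log2 ratio of deficient over control at each of the 9 probes after normexp and loess, with 1 point for each array and the mean ± moderated SE of the 2 arrays. All probes but that of Icam2 have means above 0, S1pr4 reads 0.37 and 0.44, the 2 Klf2 probes differ by 1.63 on replicate 2, and Icam2 is below 0 on both arrays.

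S1pr1, the receptor of egress and the textbook target of Klf2, was near the limit of detection. At its single probe (chr3:115703106-115703165, mm8, minus strand), processed signals were 59.4 and 35.2 in deficient replicates 1 and 2 and 22.4 and 9.24 in the control. The deficient samples were above the controls, but only deficient replicate 1 was well above background, and S1pr1 therefore did not enter the test. Its log2 ratios were 0.26 and 0.42, and they are not read as sizes of a difference, since neither control reached the limit of detection. With no filter on dim probes the mean was 0.34 (limma, adjusted p = 0.0847). With both controls raised to the lowest normalised signal called well above background on their arrays, the mean log2 ratio was 0.04. The processed signals gave larger log2 ratios, 1.41 and 1.93, on control values that were not well above background.

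S1pr4, a receptor of the same lipid found on lymphoid and myeloid cells, had nearly the same ratio on both arrays. At its probe (chr10:80901885-80901944, mm8, minus strand), processed signals were 284 and 297 in deficient replicates 1 and 2 and 193 and 192 in the control. All 4 samples were well above background and both deficient samples were above both controls, as in 25.3% of all genes. The log2 ratios were 0.37 and 0.44, with a mean of 0.40 ± 0.07 (limma, n = 2 arrays; 95% interval 0.19 to 0.62; adjusted p = 0.0910). In limma's separate-channel test, which uses the 4 samples as such, S1pr4 was called with the same mean (adjusted p = 0.0426), as were 8.58% of all genes.

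Selplg encodes PSGL-1, the P-selectin ligand by which T cell progenitors enter the thymus and leukocytes roll on vessels. At its brighter probe (chr5:114079539-114079566, mm8, minus strand, the part of the probe that the file lists), processed signals were 13913 and 13975 in deficient replicates 1 and 2 and 13622 and 14172 in the control. The deficient samples lay between the controls. The log2 ratios were 0.07 and 0.01, with a mean of 0.04 ± 0.07 (limma, n = 2 arrays; adjusted p = 0.741). The 95% interval of that mean ran from -0.17 to 0.25.

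At the other Selplg probe (chr5:114080123-114080182, mm8), processed signals were 4251 and 4785 in the deficient samples and 3103 and 4139 in the controls. Both deficient samples were above both controls at this probe, as in 25.3% of all genes at their brightest probe. Its log2 ratios were 0.43 and 0.14, with a mean of 0.29 ± 0.11 (limma over all kept probes, adjusted p = 0.203). The Selplg probes therefore agreed in sign and differed in size, by 0.36 on replicate 1 and 0.13 on replicate 2.

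Icam2, a ligand of the integrin LFA-1 on lymphocytes and endothelium, was the only member lower in the deficient sample on both arrays. At its probe (chr11:106193821-106193880, mm8, minus strand), processed signals were 13453 and 13487 in deficient replicates 1 and 2 and 17178 and 14581 in the control. Both deficient samples were below both controls, as in 32.1% of all genes. The log2 ratios were -0.33 and -0.06, with a mean of -0.19 ± 0.10 (limma, n = 2 arrays; 95% interval -0.49 to 0.10; adjusted p = 0.282). The sign depended on the normalisation: with plain median centring the mean was 0.34, and the median of all genes was then 0.13.

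**Figure D3:**
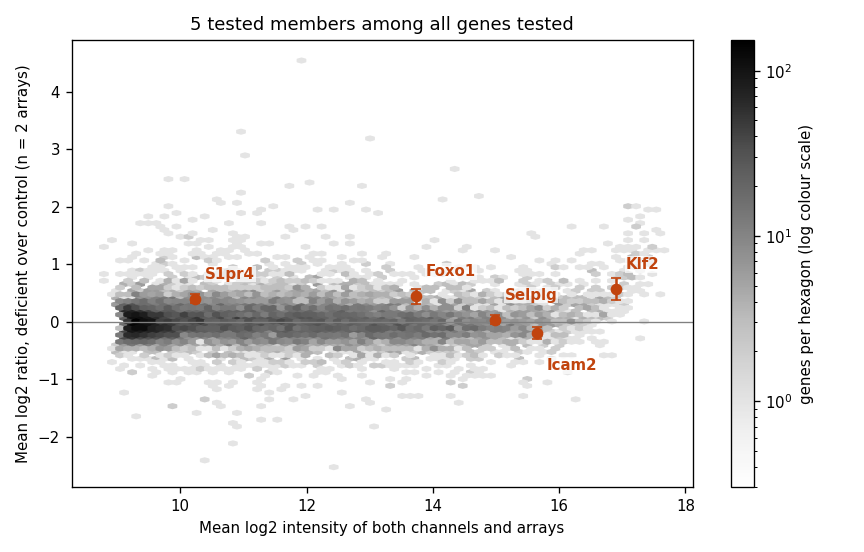
Mean log2 ratio of deficient over control against mean log2 intensity for the 14926 genes tested, shaded by the number of genes, with the 5 tested members as labelled points. Klf2 lies at the bright end, where the cloud bends upward, Foxo1 and S1pr4 lie above the bulk at lower intensities, and Selplg and Icam2 lie at and below 0.

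**Figure D4:**
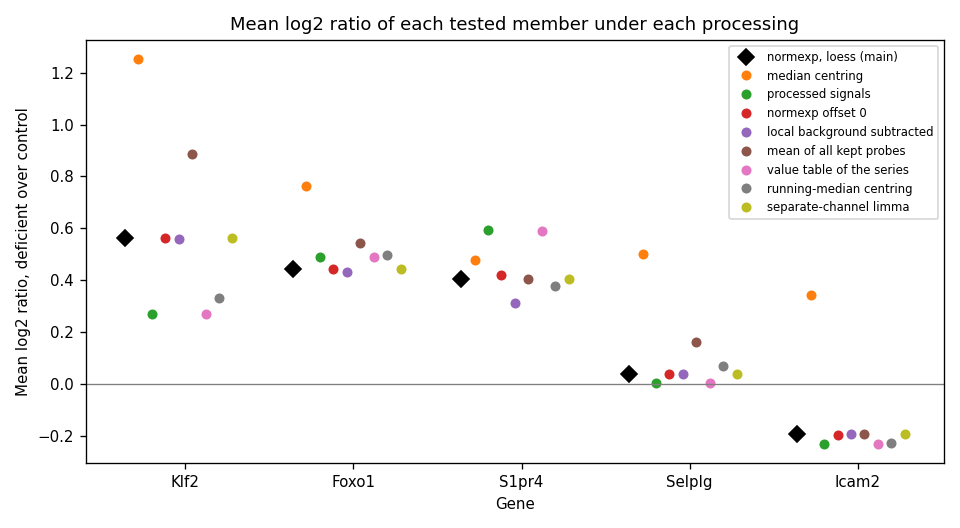
Mean log2 ratio of the 5 tested members under each processing, 1 colour for each setting and a black diamond for normexp with loess. Klf2 ranges from 0.27 to 1.25, S1pr4 from 0.31 to 0.59, and Icam2 is above 0 only with median centring.

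Of the other genes of the axis, those with the largest mean ratios were Itgb7 and Il7r, on a list of textbook targets of Klf2 and Foxo1. Of 3 such genes, all tested, 2 were higher and 1 lower on both arrays, and none was called. Their median of 1.60 is the value of Il7r itself, and the list was chosen with earlier results of these data known. Itgb7, the integrin subunit of gut homing, whose expression in thymocytes depends on Klf2, had log2 ratios of 2.08 and 3.24 and a mean of 2.66 ± 0.32 (limma, adjusted p = 0.0764). Il7r, the interleukin 7 receptor chain that Foxo1 switches on, had 1.48 and 1.71 and a mean of 1.60 ± 0.09 (limma, adjusted p = 0.0650). Both were higher in the deficient sample on both arrays, and both were called in the separate-channel test.

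Ccr7, the chemokine receptor of lymph node homing, was the last gene on that list. It had log2 ratios of -0.02 and -0.01, a mean of -0.01 ± 0.07 (limma, adjusted p = 0.904) whose sign turned with running-median centring.

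Of 14 other genes of the sphingosine 1-phosphate pathway (receptors, enzymes of the lipid and regulators of S1pr1), 12 were tested, 3 were higher and 6 lower on both arrays, and the median was -0.09. The lowest was Cd69, which pulls S1pr1 off the surface, with log2 ratios of -0.34 and -0.92 and a mean of -0.63 ± 0.17 (limma, adjusted p = 0.129). It was the only one of the 12 with an unadjusted p under 0.05 in limma's test, which 29.2% of all genes tested had. Dnm2, a dynamin used to internalise S1pr1, had a mean of -0.29 with -0.04 and -0.00 at its other probes, and Gnai2, the G protein subunit downstream of it, had -0.17, which turned to 0.36 with median centring. On the higher side, Plpp3, a lipid phosphatase, had 0.14, the receptor S1pr2 had 0.12 with -0.27 at another probe, and Coro1a, an actin regulator needed for egress, had 0.16, which turned to -0.19 from the processed signals. Spns2, the exporter of the lipid, had no probe under its name, and S1pr5 was not well above background.

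Of 17 regulators and relatives of Klf2 and Foxo1, 16 were tested, 5 were higher and 8 lower on both arrays, and the median was -0.19. At an unadjusted p under 0.05, 3 passed as higher and 7 as lower, beside 2256 higher and 2107 lower of the 14926 genes tested (29.2%). Among kinases and phosphatases of the PI3 kinase route that restrains Foxo1, Inpp5d, a phosphatase that opposes it, had log2 ratios of -0.72 and -0.75 and a mean of -0.74 ± 0.07 (limma, adjusted p = 0.0719). Pik3cd, a catalytic subunit, had a mean of 0.73 ± 0.12 with -0.00 at its other probe, Akt1 had 0.44 ± 0.11 with -0.06 at its other probe, and Pdpk1, the kinase upstream of Akt, had -0.58 ± 0.09 with -0.23 and -0.22 at its others. For Pik3cd and Akt1 the 2 probes thus differ in sign. Of the Krüppel-like relatives, Klf4 had 0.29 ± 0.08, and Klf13 had -0.46 ± 0.14 with 0.10 at its other probe. On the Erk5 route to Klf2, chosen for naming after the values were seen, Mapk7 (Erk5) had -0.43 ± 0.09 with -0.22 at its other probe. Mef2d had -0.40 ± 0.13, which turned to 0.18 with median centring, and -0.23 and -0.32 at its other probes. Map2k5, the kinase upstream of Erk5, had -0.08 and 0.06 on the arrays, a mean of -0.01. Its other probe had -0.01 and -0.08. The probes of that route were thus lower on both arrays except the brighter Map2k5 probe, and both Map2k5 probes lay near 0.

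Selplg acts as a selectin ligand only after glycosyltransferases and sulfotransferases have modified it. Of 10 genes of selectins and ligand synthesis, 7 were tested, 3 were higher and 2 lower on both arrays, and the median was 0.13. Tpst1, a tyrosine sulfotransferase, had a mean of 0.32 ± 0.10, St3gal4, a sialyltransferase, 0.22 ± 0.09, and Fut7, the fucosyltransferase of lymphocyte selectin ligands, 0.20 ± 0.08. Fut4, a related fucosyltransferase, had -0.07 ± 0.07. St3gal6, named after its value was seen, had log2 ratios of -0.51 and -1.30 and was well above background in the deficient group on 1 array only. Selp, Sele and Gcnt1 were not well above background.

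Of 8 partners and relatives of Icam2, 7 were tested, 2 were higher and 3 lower on both arrays, and the median was 0.01. Itgb2 and Itgal, the chains of its receptor LFA-1, had means of -0.52 ± 0.08 (limma, adjusted p = 0.0841) and -0.24 ± 0.10, the latter turning to 0.26 with median centring. Icam1, another LFA-1 ligand, had log2 ratios of 0.50 and 1.25 and a mean of 0.88 ± 0.21 (limma, adjusted p = 0.116), with 0.53 at its other probe. Icam4 had -0.18 ± 0.07. Ezr, which links membrane proteins to actin, had 0.22 ± 0.08 and turned to -0.03 from the processed signals. Over all 5 lists, 45 of 52 genes were tested, 15 were higher and 20 lower on both arrays, the median was -0.01 and none was called. The separate-channel test, which called 8.58% of all genes, called 6 of the 45, Itgb7, Il7r and Pik3cd as higher and Inpp5d, Pdpk1 and Itgb2 as lower.

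**Figure D5:**
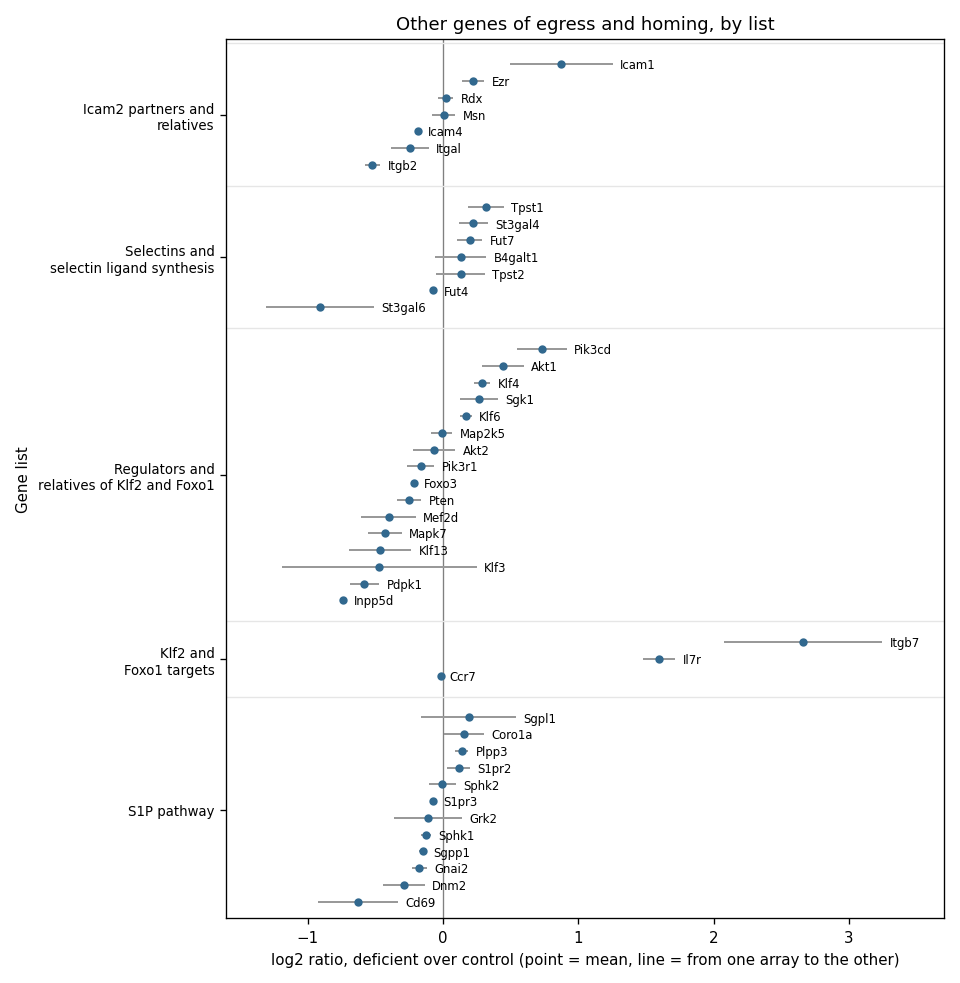
Log2 ratio of deficient over control of the 45 tested genes of the 5 lists, the point at the mean and the line running from one array to the other. Itgb7 and Il7r stand farthest to the right, at 2.66 and 1.60, while most genes of the other lists lie within 1 of 0 on both arrays.

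Several members are also expressed by cells that a DP sample could hold. Klf2, S1pr1 and Icam2 are endothelial genes too: 7 of 10 endothelial markers were tested, 4 were higher and 1 lower on both arrays, and their summed processed signals were 1863 and 1695 in the deficient samples and 1413 and 1169 in the controls. Tek and Emcn were not well above background in any sample and Cdh5 was so in 1 of the 4, whereas Pecam1, Kdr, Tie1, Egfl7 and Esam were so in all 4. Higher on both arrays were Pecam1, which T cells can also express, at a mean log2 ratio of 0.71, Eng at 0.42, Egfl7 at 0.40 and Kdr at 0.02, and Esam was lower at -0.14. Klf2, S1pr4 and Selplg are expressed in myeloid cells: 8 of 8 macrophage and monocyte markers were tested, 4 were higher and 2 lower on both arrays, and their sums were 32312 and 31804 in the deficient samples and 29301 and 11648 in the controls. The low control was replicate 2, and Lyz2 made up 23207 and 8756 of the control sums. NK cell markers, in NK cells that use S1pr5 and Klf2 as well, summed to 7484 and 8408 against 3530 and 3629, with 3 of 5 tested markers higher and 1 lower on both arrays. Most of these sums came from Gzma, with 5708 and 5500 in the deficient samples and 3040 and 3166 in the controls. Klrb1c added 1299 and 2530 against 133 and 85.6, and Ncr1 was not well above background in either control. Klrb1c had a mean of 2.87, Gzma 0.81, Klrk1 0.26, Eomes 0.09 with opposite signs on the arrays, and Prf1 -0.21. Klrk1 was not well above background in either control, and its processed signals gave a mean of 1.15. B cell markers summed to 3843 and 2855 against 6014 and 3591, with none of 5 higher and 3 lower on both arrays. Cd79b made up 3223 and 2489 of the deficient sums and 4810 and 3166 of the control sums. Of 5 gamma delta T cell markers, only Blk, also a B cell gene, was tested. The part of such cells in the members' values was not tested.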

How the data were processed

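Agilent 2-colour arrays were read by the authors with Agilent Feature Extraction 9.5.3.1, per the submitters' processing notes. The deposited mean and background signals are raw scanner intensity, and the deposited processed signals are intensity after background correction and dye normalisation, per the file headers. The deposited log ratio and the value table are log10 of processed Cy5 over Cy3, and equal each other to within 0.005. Probe positions are on mm8, as the array files give them, and promoter positions on GRCm38.p6. Positions were not converted, and no exon annotation of mm8 was used.

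Mean signals were corrected by normexp (offset 50) and normalised by loess (limma 3.58.1 and statmod 1.5.0 under R 4.3.3), and log2 ratios of deficient over control were computed from these deposited intensity values. Controls had weight 0, and 108 and 116 outlier spots were left out. Probes took names by accession (24488), symbol (6240) or synonym (2385), and 8061 kept the file's name. The filter kept 21546 probes. The mean of both arrays was tested with limma's moderated test and Benjamini-Hochberg adjustment over all genes (threshold 0.05), with 1 residual degree of freedom. An exact sign-flip test of 2 arrays cannot go below p = 0.5. Only the moderated test was tried on simulated ratios, and not the normalisation, the filter or the naming of probes.

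Named were every member probe, Bcl11b, Cd69, Il7r, Ccr7 and Itgb7, and from each list the 3 highest and 3 lowest means among genes of 1 sign on both arrays and well above background in all samples. Other names are marked as chosen later, besides markers and genes without a tested probe. Of the genes first listed, 2 are not reported here. Members, lists and motifs were chosen with earlier results of these data known.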

Additional observations from a re-analysis of the deposited data

How the results depend on the processing

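Each tested member was recomputed under 12 alternatives, 60 values in all, of which 57 kept their direction and, where tested, their side of the threshold. These are not 60 separate checks. Separate-channel limma, no filter on dim probes and both channels above background left every member's mean as it was, and only the p value could differ. Values with 1 array left out are the ratios of the other array, already of the same sign. The value table repeats the processed signals to within rounding. With median centring in place of loess Klf2 had a mean log2 ratio of 1.25 and passed (limma, adjusted p = 0.0370), and Icam2 reversed to 0.34. With separate-channel limma S1pr4 passed at 0.40 (adjusted p = 0.0426). Counts of called genes were 0 in 6 alternatives and in the reported fit, where 4363 genes had an unadjusted p under 0.05. They were 992 with median centring (887 higher, 105 lower, with the median of all genes moved to 0.13), 127 from the processed signals (71 higher, 56 lower), 37 from the value table (27 higher, 10 lower) and 1281 with separate-channel limma (709 higher, 572 lower). Of the list genes, 27 were higher and 10 lower on both arrays with median centring, against 15 and 20; separate-channel limma and single arrays gave no such counts. With 1 array left out, values had no test and ranged from 0.24 to 0.89 for Klf2, 0.24 to 0.65 for Foxo1, 0.37 to 0.44 for S1pr4, 0.01 to 0.07 for Selplg and -0.33 to -0.06 for Icam2. The reported fit is itself paired, since each array's ratio sets 1 deficient against 1 control sample. Running-median centring was chosen after the data were seen. Signals near background limit S1pr1.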
